A study of Mus musculus with 15 samples.

Results

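The genes described here are the conjugation enzymes of phase II metabolism in 3 families, the UDP-glucuronosyltransferases and their relatives (UGT), the cytosolic sulfotransferases (SULT) and the soluble glutathione S-transferases (GST). A gene was a member when its mouse symbol began with Ugt1, Ugt2, Ugt3, Sult or Gst followed by class letters or numbers, and pseudogenes were left out. This gave 64 of the 56953 genes in the deposited files, namely 21 UGT, 21 SULT and 22 GST genes. RNA came from primary mouse hepatocytes and was sequenced in 15 libraries. There were 4 libraries from ΔEGFR transgenic mice treated with carbon tetrachloride (CCl4), 4 from ΔEGFR mice treated with mineral oil, 3 from wild-type (WT) mice treated with CCl4 and 4 from WT mice treated with mineral oil. CCl4 is a liver toxicant that is activated by cytochrome P450, and its repeated dosing is a model of liver fibrosis. The study asked what EGF receptor signalling does in the fibrotic liver. The labels do not say which part of the receptor ΔEGFR lacks, which promoter drives the transgene, or the strain, age, sex, dose and duration of treatment. They name no animal or culture behind a library either, so the p-values rest on the scatter among libraries of a group, which may be technical.

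Phase II enzymes attach a polar group to drugs, toxicants, hormones and bile products, which are then excreted in bile or urine. UGT enzymes sit in the endoplasmic reticulum and transfer a sugar, mostly glucuronic acid from UDP-glucuronic acid. SULT enzymes transfer a sulfonate group from the donor PAPS in the cytosol, and GST enzymes attach glutathione to electrophiles such as lipid peroxidation products. The liver is a main site of all 3 families, and several members are controlled by the nuclear receptors CAR and PXR, by HNF4A, or by the antioxidant regulator NRF2.

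Each library held 51.7 to 155.4 M (mega) counts. Albumin, the main secreted product of hepatocytes, had 22180 to 71900 TPM (transcripts per M, a per-length level) in the 15 libraries, and none of the 15 hepatocyte markers was at 0 in any library. Summed markers of other liver and blood cells moved with the treatment, and the cell types differed. Their summed level over 113 genes was 5020 to 13830 TPM in ΔEGFR CCl4 libraries, against 219 to 2523 TPM in ΔEGFR mineral oil libraries. It was 5503 to 15310 TPM in WT CCl4 libraries, against 276 to 9914 TPM in WT mineral oil libraries. The high end of the last group was replicate 1, which had the highest score of these markers of all 15 libraries. Of 112 such markers tested, 3 were called higher with CCl4 in ΔEGFR and 16 in WT, and none was called lower. All genes were called higher at 1.77% in ΔEGFR and 5.31% in WT. In WT the median log2 fold change was -1.55 for T and NK cell, -1.37 for neutrophil and -0.009 for endothelial markers. The other types had positive WT medians, up to 1.967 for macrophage markers. In ΔEGFR every type had a positive median, from 0.563 for T and NK cell to 2.435 for macrophage markers. Of the 113 markers, 1 was at 0 in some ΔEGFR CCl4 library, 5 in some ΔEGFR mineral oil library, none in a WT CCl4 library and 13 in some WT mineral oil library. Hepatocyte markers were called lower for 2 of 15 in ΔEGFR and 5 of 15 in WT, beside 2.38% and 7.2% of all genes. Their summed level differed by less than its spread. It was 114900 ± 26500 TPM with CCl4 and 118100 ± 32140 TPM with mineral oil in ΔEGFR (SD). In WT it was 123100 ± 35490 and 118600 ± 28040 TPM. The calls use counts scaled by TMM factors, with means of 1.202 with CCl4 and 0.8704 with mineral oil in ΔEGFR. Those means were 1.173 and 0.867 in WT. In bulk RNA, fewer hepatocytes and less RNA of a gene per hepatocyte cannot be told apart. The part of the markers of other cells in the results below entered only through a covariate, their mean log2 level. This score was 3.06 to 3.86 in ΔEGFR CCl4 and -0.32 to 2.85 in ΔEGFR mineral oil libraries. In WT it was 3.27 to 3.67 with CCl4 and -0.42 to 4.17 with mineral oil. Apart from WT mineral oil replicate 1 it went with the treatment, so the covariate cannot separate these markers from CCl4. Xist was at most 0.01 TPM and Ddx3y, a Y-linked gene, was 7.89 to 21.6 TPM over the libraries. The sulfotransferases Sult2a1 and Sult3a1, which female mouse liver is known for, were near 0 in all of them.

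The families differed in level. Summed GST transcripts were 11120 ± 2504 TPM in ΔEGFR CCl4 libraries, 10062 ± 3229 in ΔEGFR mineral oil libraries, 9446 ± 966 in WT CCl4 libraries and 9506 ± 3422 in WT mineral oil libraries (SD, n = 4, 4, 3 and 4). UGT sums in the same groups were 1330 ± 104, 2038 ± 430, 1383 ± 128 and 2204 ± 362 TPM, and SULT sums were 242 ± 72, 547 ± 190, 280 ± 51 and 625 ± 122 TPM. On the per-length TPM scale, the pi-class enzyme Gstp1 had the highest mean of all members, 4499 TPM over the 15 libraries, followed by the mu-class enzyme Gstm1 with 2756 TPM and the alpha-class enzyme Gsta3 with 1101 TPM. Gstz1, which isomerises maleylacetoacetate in tyrosine breakdown, followed at 399 TPM. The leading UGT genes were Ugt2b5 at 356 TPM, Ugt2b36 at 303 TPM, Ugt2b34 at 186 TPM and Ugt1a1 at 179 TPM. The leading SULT genes were Sult1a1 at 184 TPM and Sult2a8 at 173 TPM. Of the 64 members, 38 had at least 1 TPM in every library, made up of 20 GST, 14 UGT and 4 SULT genes. The test covered 50 members, and the 14 that did not pass the low-count filter never exceeded 0.58 TPM. Those were Gstt4, Ugt2a1, Ugt2a2, Sult1c1, the 6 genes from Sult2a1 to Sult2a6, Sult3a1, Sult3a2, Sult6b1 and Sult6b2.

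With CCl4, part of the conjugation genes were called lower and none higher, in either genotype, and most were not called. In ΔEGFR hepatocytes 13 of 50 tested members were called lower and 0 higher by edgeR's quasi-likelihood test at a Benjamini-Hochberg adjusted p under 0.05 over 17975 genes. The background of all genes tested in ΔEGFR was 2.38% called lower and 1.77% called higher. In WT hepatocytes 19 of 50 were called lower and 0 higher, beside a background of 7.2% called lower and 5.31% called higher. The counts at an unadjusted p under 0.05 were 25 lower and 2 higher in ΔEGFR, and 23 lower and 1 higher in WT. Over all genes that threshold passed 13.2% lower and 11.6% higher in ΔEGFR, and 16.2% lower and 12.7% higher in WT. DESeq2 called 20 members lower in ΔEGFR and 21 in WT, with 0 higher in both. Of all genes it called 6.06% lower and 7.34% higher in ΔEGFR, and 11% lower and 9.13% higher in WT. Limma on log2(TPM + 1) called 8 lower in each genotype, with 0 higher in ΔEGFR and 1 in WT, the barely expressed Sult4a1. Of all genes limma called 0.79% lower and 11.8% higher in ΔEGFR, and 1.94% lower and 16% higher in WT. The CPM ranges of CCl4 and mineral oil libraries did not overlap for 21 members in ΔEGFR and 22 in WT, every one of them lower with CCl4. Over all genes that share was 9.32% lower and 12.3% higher in ΔEGFR, and 11.9% lower and 12.1% higher in WT. The median log2 fold change of the tested members was -0.76 in ΔEGFR and -0.81 in WT, against -0.02 and -0.03 over all genes. The 15 hepatocyte markers had medians of -0.855 in ΔEGFR and -0.598 in WT, so a lower median was not particular to the members. The 2 comparisons share no library, but they come from 1 fit with a shared estimate of the spread. All 13 members called in ΔEGFR were also called in WT, which is 100% of the ΔEGFR calls and 68.4% of the WT calls. The same share over all genes was not computed, so this overlap is no result about the members.

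**Figure D1:**
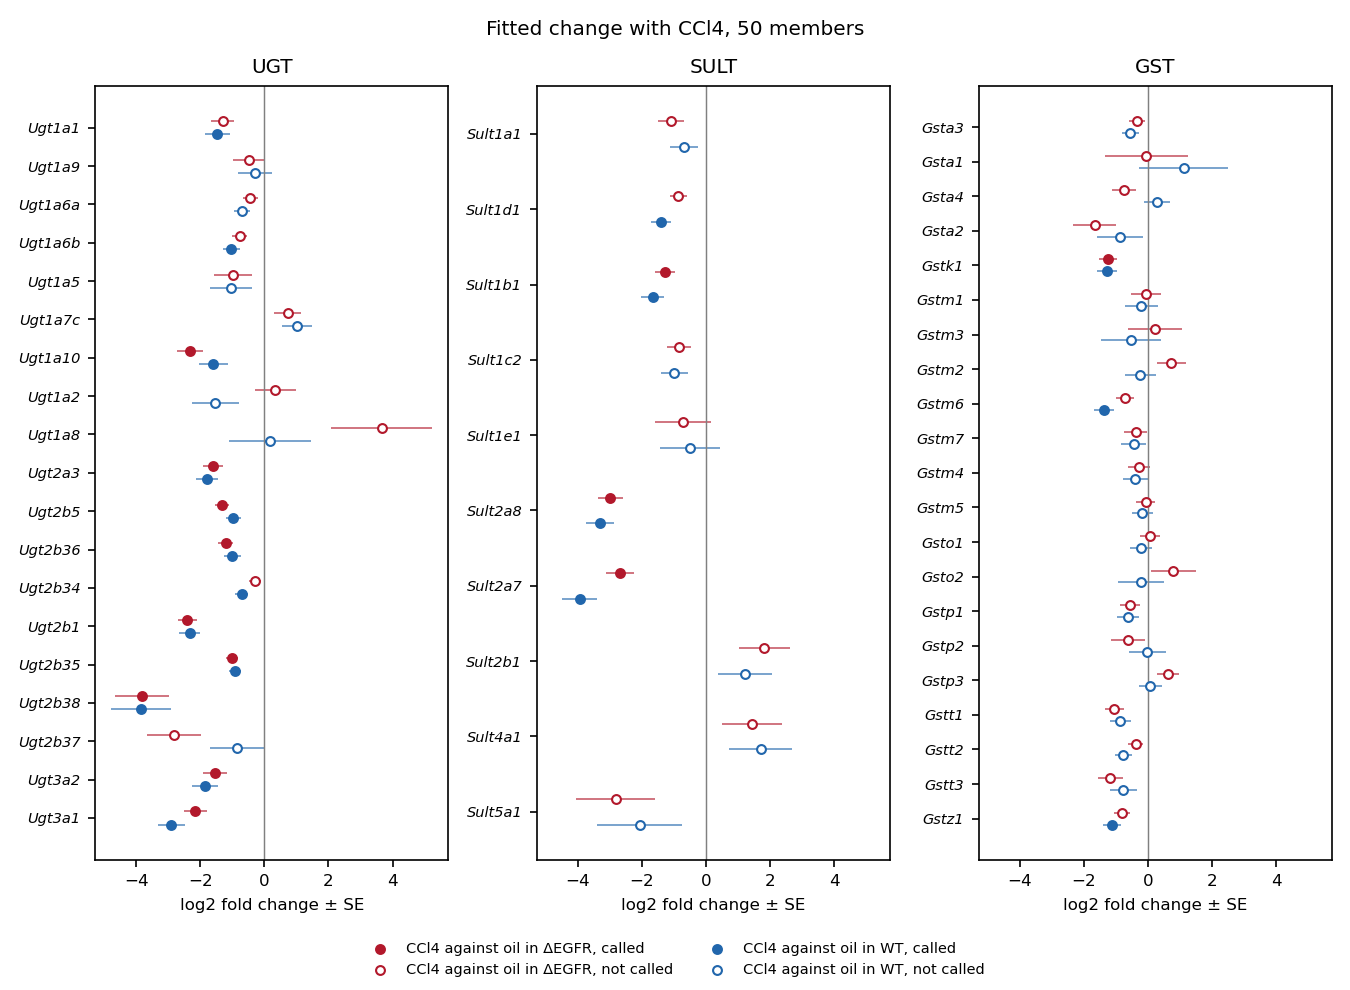
Fitted log2 fold change of CCl4 over mineral oil with its standard error for the 50 tested members, by family and class, in ΔEGFR (red) and WT (blue). Filled points passed the adjusted p of 0.05: 9 UGT, 3 SULT and 1 GST gene in ΔEGFR and 12 UGT, 4 SULT and 3 GST genes in WT, all to the left of 0.

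Counts by family stand beside the same backgrounds of 2.38% of genes called lower in ΔEGFR and 7.2% in WT. Of 19 tested UGT genes, 9 were called lower in ΔEGFR and 12 in WT, with family medians of -1.20 and -1.03 on the log2 scale. Of 10 tested SULT genes, 3 were called lower in ΔEGFR and 4 in WT, with medians of -0.99 and -1.20. Of 21 tested GST genes, 1 was called lower in ΔEGFR and 3 in WT, with medians of -0.38 and -0.45. No difference between families was tested, since the members of a family are not replicates of each other.

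Among the UGT2 genes, which handle steroids, bile acids and many drugs, Ugt2b1 showed the firmest fall. It had 43.5, 80.98, 106 and 93.9 CPM in ΔEGFR CCl4 libraries, against 405, 399, 363 and 543 in ΔEGFR mineral oil libraries. In WT it had 122, 98.6 and 68.5 in WT CCl4 libraries, against 325, 498, 578 and 541 in WT mineral oil libraries. Every CCl4 library lay below every mineral oil library in both genotypes, and the log2 fold change was -2.397 ± 0.29 (adjusted p = 0.0048) in ΔEGFR and -2.33 ± 0.32 (adjusted p = 0.00344) in WT. CPM are counts per M scaled by TMM factors, and all fold changes refer to that scale. Ugt2a3 lies in the same gene cluster. It had 32.7, 54.5, 66.5 and 86.7 CPM in ΔEGFR CCl4 libraries, against 155, 184, 119.5 and 270.3 in ΔEGFR mineral oil libraries. In WT the values were 67.3, 66.3 and 39.3 in WT CCl4 libraries, against 165, 223, 211 and 199 in WT mineral oil libraries. The groups did not overlap in either genotype, with fold changes of -1.600 ± 0.31 (adjusted p = 0.021) in ΔEGFR and -1.79 ± 0.34 (adjusted p = 0.00782) in WT.

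The most abundant UGT gene, Ugt2b5, had 215, 209.5, 303 and 231 CPM in ΔEGFR CCl4 libraries, against 671, 549.8, 512 and 681 in ΔEGFR mineral oil libraries. Its WT values were 424, 308 and 218 in WT CCl4 libraries, against 470.4, 686, 643 and 668 in WT mineral oil libraries. Both changes passed, with log2 fold changes of -1.33 ± 0.22 (adjusted p = 0.0112) in ΔEGFR and -0.96 ± 0.24 (adjusted p = 0.0209) in WT, and its groups did not overlap. Ugt2b36 had 143, 168, 246 and 244 CPM in ΔEGFR CCl4 libraries, against 459, 502, 345 and 534 in ΔEGFR mineral oil libraries. WT hepatocytes gave 250.4, 230.0 and 150.1 in WT CCl4 libraries, against 317, 466, 425 and 468 in WT mineral oil libraries. These groups did not overlap either, and the log2 fold changes were -1.198 ± 0.23 (adjusted p = 0.0223) in ΔEGFR and -0.996 ± 0.25 (adjusted p = 0.0244) in WT.

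Ugt2b35 varied little within a group. It had 104, 75.7, 116 and 122 CPM in ΔEGFR CCl4 libraries, against 223, 206, 215 and 198 in ΔEGFR mineral oil libraries. For WT the values were 95.3, 122 and 106 in WT CCl4 libraries, against 149, 226, 206 and 238 in WT mineral oil libraries. Its fall was -1.01 ± 0.17 (adjusted p = 0.0138) in ΔEGFR and -0.92 ± 0.19 (adjusted p = 0.0109) in WT on the log2 scale, again with no overlap. Ugt2b34, the next most abundant Ugt2b gene, was called in WT and not in ΔEGFR. It had 394, 298, 368 and 306 CPM in ΔEGFR CCl4 libraries, against 447, 448, 315 and 466 in ΔEGFR mineral oil libraries, and these ranges overlapped. In WT it had 227, 353 and 284 in WT CCl4 libraries, against 355, 553, 522 and 456 in WT mineral oil libraries, with no overlap. Its log2 fold change was -0.296 ± 0.19 (adjusted p = 0.357) in ΔEGFR, where it was not called, and -0.71 ± 0.21 (adjusted p = 0.0438) in WT. The interaction of genotype and treatment, which tests that difference, gave 0.42 ± 0.28 (adjusted p = 1) for Ugt2b34.

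Ugt2b38 had the largest fitted fall of the UGT genes and wide spread. It had 0.361, 1.11, 2.45 and 0.504 CPM in ΔEGFR CCl4 libraries, against 19.5, 8.61, 14.6 and 18.97 in ΔEGFR mineral oil libraries. In WT it had 4.63, 0.4301 and 4.29 in WT CCl4 libraries, against 29.2, 50.9, 87.7 and 11.1 in WT mineral oil libraries. The ranges did not overlap, and the log2 fold change was -3.82 ± 0.84 (adjusted p = 0.0319) in ΔEGFR and -3.84 ± 0.94 (adjusted p = 0.0212) in WT. Ugt2b38 shares 34.1% of its 50-base windows with Ugt2b5, so the division of reads between them is uncertain. Their sum fell by 1.36 in ΔEGFR (adjusted p = 0.0105) and by 1.05 in WT (adjusted p = 0.0155) on the log2 scale. The remaining tested gene of the class, Ugt2b37, was not called, with -2.81 ± 0.84 (adjusted p = 0.0731) in ΔEGFR and -0.84 ± 0.86 (adjusted p = 0.556) in WT. Together 5 of 7 tested Ugt2b genes were called lower in ΔEGFR and 6 of 7 in WT.

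UGT3 enzymes differ from the rest of the family in their sugar donor. In human, UGT3A1 transfers N-acetylglucosamine, with ursodeoxycholic acid among its substrates, and UGT3A2 uses UDP-glucose and UDP-xylose. Both mouse genes fell in both genotypes. Ugt3a1 had 7.598, 4.56, 14.3 and 11.5 CPM in ΔEGFR CCl4 libraries, against 44.7, 34.7, 25.6 and 63.9 in ΔEGFR mineral oil libraries. In WT hepatocytes Ugt3a1 had 10.98, 7.59 and 7.39 in WT CCl4 libraries, against 44.98, 70.01, 84.5 and 59.9 in WT mineral oil libraries. The groups lay far apart, and the log2 fold change of Ugt3a1 was -2.15 ± 0.36 (adjusted p = 0.0127) in ΔEGFR and -2.91 ± 0.42 (adjusted p = 0.00352) in WT. Ugt3a2 had 48.6, 49.6, 95.03 and 135 CPM in ΔEGFR CCl4 libraries, against 239, 216, 166 and 332 in ΔEGFR mineral oil libraries. In WT Ugt3a2 had 118, 65.3 and 65.7 in WT CCl4 libraries, against 216, 359, 381 and 243 in WT mineral oil libraries. Its ranges did not overlap, with -1.54 ± 0.36 (adjusted p = 0.0376) in ΔEGFR and -1.85 ± 0.403 (adjusted p = 0.0132) in WT.

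**Figure D2:**
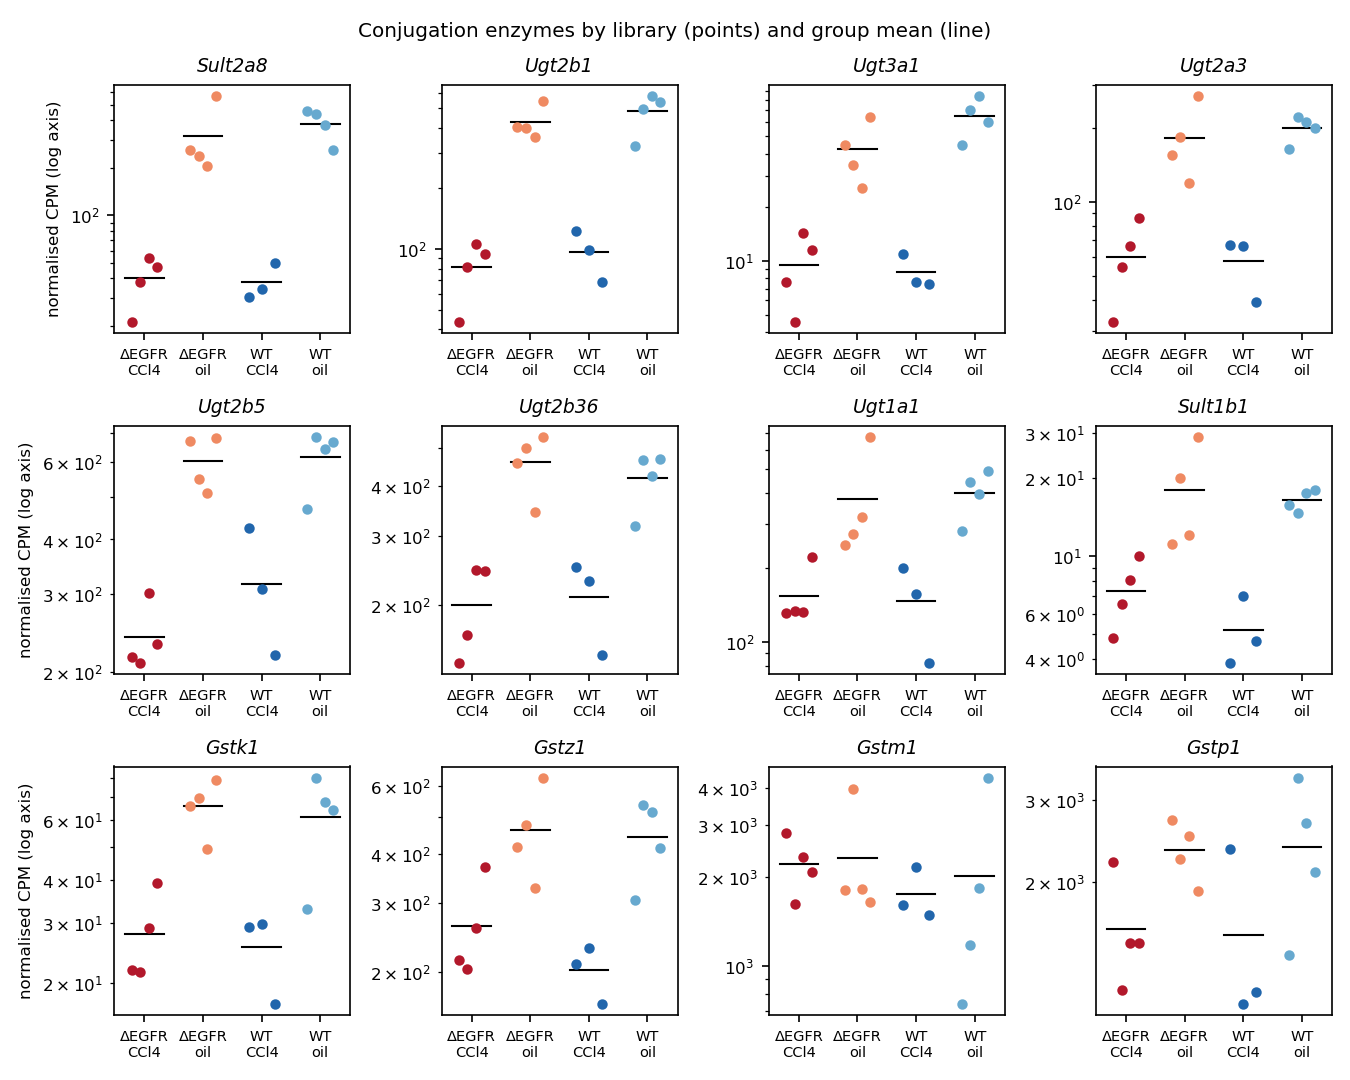
TMM-normalised CPM (log axis) of 12 conjugation genes in each library, by group, with the arithmetic mean of the group as a line. Sult2a8, Ugt2b1, Ugt3a1, Ugt2a3, Ugt2b5, Ugt2b36, Ugt1a1, Sult1b1 and Gstk1 show CCl4 libraries below all mineral oil libraries of the same genotype, Gstz1 does so in WT, and Gstm1 and Gstp1 overlap between treatments.

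The 9 Ugt1a genes are transcribed from 1 locus, each from its own first exon joined to the same later exons. Of their 50-base windows 20.2% to 47.9% are found in no other gene, so reads from the shared exons had to be divided by estimation. Summed over the locus, ΔEGFR CCl4 libraries had 447, 414, 523 and 585 CPM, against 738, 891, 707 and 1191 in ΔEGFR mineral oil libraries. WT CCl4 libraries had 521, 562 and 337 CPM, against 688, 868, 1019 and 1046 in WT mineral oil libraries. The locus sum therefore lay lower in every CCl4 library, with a log2 fold change of -0.84 ± 0.23 in ΔEGFR (adjusted p = 0.0536, not called) and -0.94 ± 0.25 in WT (adjusted p = 0.0284). Ugt1a1 is the enzyme that glucuronidates bilirubin. Its estimate was 131, 133, 132 and 221 CPM in ΔEGFR CCl4 libraries, against 246, 273, 320.3 and 678 in ΔEGFR mineral oil libraries. In WT Ugt1a1 had 199, 157 and 82.5 in WT CCl4 libraries, against 282, 443, 396 and 491 in WT mineral oil libraries. Its ranges did not overlap in either genotype, with -1.299 ± 0.36 (adjusted p = 0.05704) in ΔEGFR, where it was not called, and -1.46 ± 0.39 (adjusted p = 0.0303) in WT. The interaction for Ugt1a1 was 0.16 ± 0.52 (adjusted p = 1).

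Ugt1a6a and Ugt1a6b belong to the enzymes of small planar phenols, and 79.6% of the windows of Ugt1a6b are shared with Ugt1a6a. Ugt1a6b had 77.8, 75.4, 98.98 and 98.5 CPM in ΔEGFR CCl4 libraries, against 129, 143, 134 and 189 in ΔEGFR mineral oil libraries. WT values of Ugt1a6b were 85.2, 74.6 and 47.6 in WT CCl4 libraries, against 86.03, 138, 157 and 183 in WT mineral oil libraries. The groups did not overlap, with -0.76 ± 0.24 (adjusted p = 0.0801) in ΔEGFR, which did not pass, and -1.03 ± 0.26 (adjusted p = 0.0238) in WT. Ugt1a10, given after its values were seen, was called in both genotypes at under 3 CPM. It had 0.247, 0.292, 0.218 and 0.448 CPM in ΔEGFR CCl4 libraries, against 2.01, 1.75, 1.24 and 1.04 in ΔEGFR mineral oil libraries. In WT Ugt1a10 had 0.482, 0.645 and 0.416 in WT CCl4 libraries, against 2.41, 0.785, 2.04 and 0.9801 in WT mineral oil libraries. Its log2 fold change was -2.32 ± 0.42 (adjusted p = 0.0174) in ΔEGFR and -1.598 ± 0.45 (adjusted p = 0.0361) in WT, again with no overlap. The other 6 Ugt1a genes were not called in either genotype. Their log2 fold changes ran from -0.98 (Ugt1a5) to 3.66 (Ugt1a8, at most 0.218 CPM in any library) in ΔEGFR, and from -1.53 (Ugt1a2) to 1.03 (Ugt1a7c) in WT. Ugt1a7c had an unadjusted p of 0.04402 in WT and was called higher there only when WT mineral oil replicate 1 was left out.

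Sult2a8, reported as the main bile acid sulfotransferase of mouse liver, had the largest fitted fall among the leading members named above. It had 21.3, 38.2, 53.5 and 46.99 CPM in ΔEGFR CCl4 libraries, against 258, 237, 204 and 568 in ΔEGFR mineral oil libraries. In WT Sult2a8 had 30.6, 34.2 and 49.96 in WT CCl4 libraries, against 455, 433, 371 and 258 in WT mineral oil libraries. The highest CCl4 library stood well under the lowest mineral oil library of either genotype. The log2 fold change of Sult2a8 was -2.99 ± 0.38 (adjusted p = 0.0048) in ΔEGFR and -3.31 ± 0.43 (adjusted p = 0.00344) in WT, which is 7.92-fold and 9.91-fold lower. Sult2a7, also given after its values were seen, was under 2 CPM, with 0.0571, 0.126, 0.08405 and 0.0719 CPM in ΔEGFR CCl4 libraries, against 0.811, 0.437, 0.353 and 0.613 in ΔEGFR mineral oil libraries. In WT Sult2a7 had 0.0371, 0.0461 and 0.0574 in WT CCl4 libraries, against 0.5504, 1.39, 0.579 and 0.547 in WT mineral oil libraries. It was called in both, at -2.69 ± 0.44 (adjusted p = 0.0112) in ΔEGFR and -3.95 ± 0.53 (adjusted p = 0.00344) in WT. Sult2b1, which sulfonates cholesterol, reached at most 0.1101 CPM in any library and was not called.

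Sult1 enzymes act on phenols, catecholamines, thyroid hormones and estrogens. Sult1b1, a thyroid hormone and phenol sulfotransferase, had 4.81, 6.51, 8.07 and 10.01 CPM in ΔEGFR CCl4 libraries, against 11.1, 20.1, 12.04 and 28.9 in ΔEGFR mineral oil libraries. In WT Sult1b1 had 3.88, 7.04 and 4.68 in WT CCl4 libraries, against 15.8, 14.7, 17.6 and 18.04 in WT mineral oil libraries. It was lower in every CCl4 library of both genotypes, with -1.296 ± 0.31 (adjusted p = 0.0403) in ΔEGFR and -1.67 ± 0.35 (adjusted p = 0.0116) in WT. Sult1d1, which acts on catecholamines in mouse, had 34.1, 49.4, 51.4 and 52.2 CPM in ΔEGFR CCl4 libraries, against 82.5, 105, 53.3 and 101 in ΔEGFR mineral oil libraries. In WT Sult1d1 had 38.7, 40.8 and 30.7 in WT CCl4 libraries, against 63.8, 149, 103 and 74.9 in WT mineral oil libraries. These groups did not overlap either, with -0.87 ± 0.27 (adjusted p = 0.0814) in ΔEGFR, where it was not called, -1.41 ± 0.302 (adjusted p = 0.0126) in WT and an interaction of 0.54 ± 0.397 (adjusted p = 1). Sult1a1, the main phenol sulfotransferase, had 52.9, 69.1, 71.7 and 166 CPM in ΔEGFR CCl4 libraries, against 192, 168, 142 and 272 in ΔEGFR mineral oil libraries. In WT Sult1a1 had 168, 120.3 and 65.02 in WT CCl4 libraries, against 129, 314, 168 and 147 in WT mineral oil libraries. Ranges overlapped in WT and in ΔEGFR, where replicate 4 of the CCl4 group stood above the others, and neither difference passed, at -1.11 ± 0.41 (adjusted p = 0.125) in ΔEGFR and -0.69 ± 0.44 (adjusted p = 0.329) in WT. Without that replicate Sult1a1 was called lower in ΔEGFR, at -1.52 (adjusted p = 0.0437).

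Sult5a1 varied more among replicates than between treatments. It had 0.1903, 0.324, 0.168 and 1.56 CPM in ΔEGFR CCl4 libraries, against 3.9, 0.251, 1.303 and 10.6 in ΔEGFR mineral oil libraries. In WT Sult5a1 had 5.02, 0.184 and 0.684 in WT CCl4 libraries, against 5.14, 17.3, 8.44 and 2.07 in WT mineral oil libraries. The values within a group differed by more than 10-fold in ΔEGFR mineral oil libraries and in WT CCl4 libraries, and the log2 fold change was -2.83 ± 1.23 (adjusted p = 0.177) in ΔEGFR and -2.07 ± 1.32 (adjusted p = 0.324) in WT. The remaining tested SULT genes, Sult1c2, Sult1e1 and Sult4a1, were under 5 CPM in every library and were not called. Sult1e1, the estrogen sulfotransferase, is given here after its values were seen, because it had an unadjusted p under 0.05 in both genotype comparisons. It had 0.184, 0.379, 0.303 and 0.1998 CPM in ΔEGFR CCl4 libraries, against 0.7799, 0.251, 0.457 and 0.274 in ΔEGFR mineral oil libraries. In WT Sult1e1 had 3.56, 0.369 and 0.407 in WT CCl4 libraries, against 0.885, 4.62, 2.53 and 0.189 in WT mineral oil libraries. Its ΔEGFR over WT log2 fold change was -2.43 ± 0.95 (adjusted p = 1) under CCl4 and -2.22 ± 0.900 (adjusted p = 0.713) in mineral oil, and the ranges overlapped in both.

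Most GST genes did not pass the test. Gstk1, the kappa-class enzyme of mitochondria and peroxisomes, was the only GST gene called in both genotypes. It had 21.8, 21.5, 28.9 and 39.2 CPM in ΔEGFR CCl4 libraries, against 66.2, 69.7, 49.3 and 78.7 in ΔEGFR mineral oil libraries. In WT Gstk1 had 29.1, 29.7 and 17.3 in WT CCl4 libraries, against 32.9, 79.9, 67.8 and 64.4 in WT mineral oil libraries. The CCl4 libraries lay lower without overlap, with -1.24 ± 0.28 (adjusted p = 0.0357) in ΔEGFR and -1.27 ± 0.31 (adjusted p = 0.0215) in WT. Gstz1, the zeta-class enzyme named above, had 214, 203, 259.6 and 372 CPM in ΔEGFR CCl4 libraries, against 417, 475, 328 and 629 in ΔEGFR mineral oil libraries. In WT Gstz1 had 209, 230.1 and 166 in WT CCl4 libraries, against 306, 535, 515 and 415 in WT mineral oil libraries. ΔEGFR libraries overlapped at replicate 4 of the CCl4 group and gave -0.82 ± 0.25 (adjusted p = 0.0814), and WT libraries did not overlap and passed at -1.14 ± 0.28 (adjusted p = 0.0217). Gstm6, a mu-class gene, had 60.1, 31.4, 28.7 and 38.7 CPM in ΔEGFR CCl4 libraries, against 52.5, 57.1, 60.6 and 92.2 in ΔEGFR mineral oil libraries. In WT Gstm6 had 30.2, 28.04 and 23.1 in WT CCl4 libraries, against 47.4, 51.98, 95.7 and 83.01 in WT mineral oil libraries. It was not called in ΔEGFR, where the ranges overlapped, at -0.72 ± 0.28 (adjusted p = 0.138), and was called in WT, without overlap, at -1.36 ± 0.31 (adjusted p = 0.0167). The interaction was 0.32 ± 0.37 (adjusted p = 1) for Gstz1 and 0.63 ± 0.41 (adjusted p = 1) for Gstm6. The theta-class genes Gstt1, Gstt2 and Gstt3, picked after their values were seen, had log2 fold changes of -1.05, -0.39 and -1.18 in ΔEGFR, and -0.87, -0.77 and -0.78 in WT, with no call.

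The 3 most abundant conjugation genes overlapped between treatments. Gstp1, the pi-class enzyme that is high in male mouse liver, had 2204, 1172, 1479 and 1484 CPM in ΔEGFR CCl4 libraries, against 2710, 2241, 2510 and 1914 in ΔEGFR mineral oil libraries. In WT Gstp1 had 2356, 1098 and 1161 in WT CCl4 libraries, against 1397, 3341, 2668 and 2097 in WT mineral oil libraries. One CCl4 library of each genotype reached the mineral oil range, and the log2 fold change was -0.56 ± 0.32 (adjusted p = 0.282) in ΔEGFR and -0.63 ± 0.35 (adjusted p = 0.2499) in WT. Gstp1 shares 33.7% of its windows with Gstp2, and their sum gave -0.57 ± 0.32 in ΔEGFR and -0.62 ± 0.35 in WT, not called. Gstm1 had 2822, 1623, 2332 and 2085 CPM in ΔEGFR CCl4 libraries, against 1801, 3983, 1818 and 1640 in ΔEGFR mineral oil libraries. In WT Gstm1 had 1611, 2164 and 1486 in WT CCl4 libraries, against 743, 1174, 1830 and 4337 in WT mineral oil libraries. Replicate 2 of ΔEGFR mineral oil and replicate 4 of WT mineral oil stood highest in their groups, and the log2 fold change was -0.06 ± 0.47 (adjusted p = 0.9495) in ΔEGFR and -0.205 ± 0.51 (adjusted p = 0.8203) in WT. Gsta3, which in mouse conjugates the aflatoxin epoxide, had 595, 599.5, 657 and 944 CPM in ΔEGFR CCl4 libraries, against 632, 1005, 845 and 1074 in ΔEGFR mineral oil libraries. In WT Gsta3 had 449.9, 755 and 465 in WT CCl4 libraries, against 573, 926, 922 and 843 in WT mineral oil libraries. All ranges of Gsta3 overlapped, at -0.35 ± 0.25 (adjusted p = 0.399) in ΔEGFR and -0.55 ± 0.27 (adjusted p = 0.195) in WT. The sign of Gstm1 in both genotypes and of Gsta3 in ΔEGFR depended on the scaling, and that of Gstp1 did not under the alternatives run. Without TMM factors the median of all genes moved to 0.44 in ΔEGFR and 0.40 in WT on the log2 scale, and Gstm1 then had 0.38 in ΔEGFR and 0.23 in WT, and Gsta3 had 0.084 in ΔEGFR.

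NRF2 acts on many GST genes through the antioxidant response element, and its core, TGACNNNGC with no mismatch, was searched on both strands. RefSeq promoter windows (GRCm38.p6, from 250 bases before to 50 after the start) were given for 56 members. The core was found for 3 of them (5.36%), all GST genes, beside 14.0% of all 27025 genes. Those were Gsta3, Gstm5 and Gstm7, none of which was called in any comparison. The stretch of Gsta3 is shown as that of the most abundant of the 3, with the match in capitals, and lies at chr1:21240444-21240492, plus strand, the match beginning 121 bases before the start.
Gsta3: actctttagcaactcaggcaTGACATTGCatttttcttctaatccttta
A match is a description of letters and does not show that a factor binds there.

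A set of inducible GST genes spread over a wide range among mineral oil libraries. Gsta1 and Gsta2 are alpha-class genes known to respond to electrophiles through NRF2, and both are given here after their values were seen. Gsta1 had 93.1, 59.4, 50.5 and 17.4 CPM in ΔEGFR CCl4 libraries, against 30.4, 135, 60.7 and 3.22 in ΔEGFR mineral oil libraries. In WT Gsta1 had 89.9, 62.9 and 45.05 in WT CCl4 libraries, against 2.17, 0.942, 2.29 and 116 in WT mineral oil libraries. WT mineral oil replicate 4 stood at 116 CPM, beside 3 libraries of at most 2.29 CPM, and ΔEGFR mineral oil replicate 4 was the lowest of its group. The log2 fold change of Gsta1 was -0.06 ± 1.29 (adjusted p = 0.983) in ΔEGFR and 1.11 ± 1.39 (adjusted p = 0.633) in WT, and without WT mineral oil replicate 4 Gsta1 was the only member called higher in WT. Only 9.5% of the windows of Gsta1 are found in no other gene, and 46.6% are shared with Gsta2. Gsta2 had 12.2, 7.89, 14.4 and 4.74 CPM in ΔEGFR CCl4 libraries, against 20.6, 44.3, 37.4 and 22.1 in ΔEGFR mineral oil libraries. In WT Gsta2 had 12.5, 21.6 and 7.46 in WT CCl4 libraries, against 6.902, 9.15, 15.03 and 69.3 in WT mineral oil libraries. Replicate 4 was again the high library of WT mineral oil, and the log2 fold change was -1.67 ± 0.67 (adjusted p = 0.149) in ΔEGFR, where the ranges did not overlap, and -0.86 ± 0.72 (adjusted p = 0.459) in WT.

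Gstm3, another mu-class gene, showed the same high library. It had 169, 135, 302 and 296 CPM in ΔEGFR CCl4 libraries, against 216, 342, 149 and 68.2 in ΔEGFR mineral oil libraries. In WT Gstm3 had 136, 314 and 75.5 in WT CCl4 libraries, against 39.3, 56.4, 86.96 and 818 in WT mineral oil libraries. Neither difference passed, at 0.22 ± 0.86 (adjusted p = 0.897) in ΔEGFR and -0.52 ± 0.93 (adjusted p = 0.7504) in WT, and without WT mineral oil replicate 4 the WT value was 1.49. Nqo1, an NRF2 target outside the 3 families picked after its values were seen, had 8.09, 4.21, 5.93 and 6.53 CPM in ΔEGFR CCl4 libraries, against 6.46, 8.43, 9.32 and 3.59 in ΔEGFR mineral oil libraries. In WT Nqo1 had 5.38, 6.45 and 3.58 in WT CCl4 libraries, against 1.78, 3.43, 2.25 and 6.79 in WT mineral oil libraries. The highest WT mineral oil library was replicate 4 for Nqo1 too, and the highest ΔEGFR mineral oil libraries were replicates 2 and 3. Gclm, Abcc4 and Pgd, the NRF2 targets called below, did not all follow. In WT mineral oil replicates 1 to 4, Gclm had 129, 208, 202 and 203 TPM. Abcc4 had 1.89, 0.1, 0.09 and 1.15 TPM there, and Pgd had 50.5, 21.76, 25.03 and 50.78 TPM. Of 22 NRF2 targets outside the families, 1 was called higher and 1 lower with CCl4 in ΔEGFR (Abcc4 and Gclm), and 1 higher in WT (Pgd). These counts are near the backgrounds of 1.77% higher and 2.38% lower in ΔEGFR and 5.31% higher in WT. By sign alone, 12 of the 22 were positive in ΔEGFR (median 0.06) and 19 of 22 in WT (median 0.44). The interaction was negative for 19 of 22, with 0 called. Over all genes, 51.3% were negative in ΔEGFR, 51.9% in WT and 46.9% for the interaction. The P450 genes Cyp3a11 and Cyp2c55, picked after their values were seen, were also highest in WT mineral oil replicate 4. In WT mineral oil replicates 1 to 4, Cyp3a11 had 262.8, 247.4, 428.7 and 5783 TPM, and Cyp2c55 had 3.4, 2.23, 1.34 and 43.57 TPM. Cyp2b10 and Cyp2c29 were instead highest in replicate 3, at 76.67 and 2407 TPM. The high library is therefore not a trait of NRF2 targets alone. What sets these libraries apart was not tested.

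**Figure D3:**
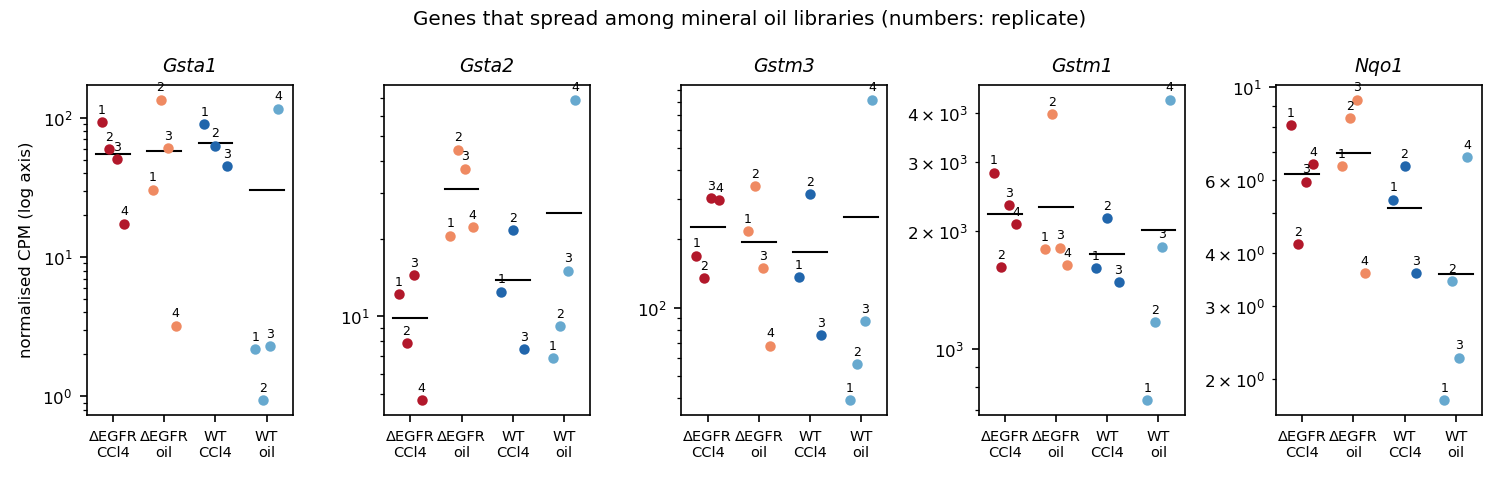
TMM-normalised CPM (log axis) of Gsta1, Gsta2, Gstm3, Gstm1 and Nqo1 in each library, numbered by replicate, with the group mean as a line. Replicate 4 is the highest WT mineral oil library for all 5 genes, with 116 CPM of Gsta1 against 0.942 to 2.29 CPM in the other 3.

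Shares of TPM within a library need no scaling between libraries, and they showed the make-up of the conjugation transcripts. The 64 members held 1.27% ± 0.238 of all transcripts in ΔEGFR CCl4 libraries, 1.26% ± 0.351 in ΔEGFR mineral oil libraries, 1.11% ± 0.112 in WT CCl4 libraries and 1.23% ± 0.371 in WT mineral oil libraries (SD, n = 4, 4, 3 and 4). The total thus differed by less than the spread between replicates, and its make-up differed. UGT transcripts amounted to 8.19% to 14.3% of GST transcripts in ΔEGFR CCl4 libraries, against 16.9% to 29.6% in ΔEGFR mineral oil libraries. In WT they amounted to 14% to 15.7% with CCl4, against 18.7% to 32.5% with mineral oil, and neither pair of ranges overlapped. SULT transcripts amounted to 1.07% to 3.46% of GST transcripts in ΔEGFR CCl4 libraries, against 3.96% to 10.2% in ΔEGFR mineral oil libraries. In WT that ratio was 2.73% to 3.196% with CCl4, against 3.62% to 11.8% with mineral oil.

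Within the SULT family, Sult2a8 held 18.3% ± 5.44 of the TPM in ΔEGFR CCl4 libraries, against 45.2% ± 5.29 in ΔEGFR mineral oil libraries. It held 17.1% ± 10.3 in WT CCl4 libraries, against 51.3% ± 9.58 in WT mineral oil libraries. With CCl4, Sult1a1 held the most, at 55.6% ± 8.99 in ΔEGFR and 64.2% ± 11.6 in WT. Its share was 38.9% ± 3.33 in ΔEGFR mineral oil libraries and 32.8% ± 6.98 in WT mineral oil libraries. Within the UGT family, Ugt2b1 held 2.67% to 5.1% in ΔEGFR CCl4 libraries, against 9.67% to 10.9% in ΔEGFR mineral oil libraries. In WT it held 4.602% to 5.42% with CCl4, against 9.92% to 11.8% with mineral oil. Ugt1a genes held 28.4% to 32.4% of UGT transcripts in ΔEGFR CCl4 libraries, against 21.4% to 27.1% in ΔEGFR mineral oil libraries. Their share was 26.9% to 31.3% in WT CCl4 libraries, against 21.7% to 26.3% in WT mineral oil libraries, so it was higher with CCl4 while the Ugt2b class as a whole overlapped. Among GST transcripts, the kappa-class gene held 0.3396% to 0.772% in ΔEGFR CCl4 libraries, against 0.806% to 1.42% in ΔEGFR mineral oil libraries. In WT the kappa share was 0.521% to 0.679% with CCl4, against 0.809% to 1.195% with mineral oil, without overlap in either genotype.

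**Figure D4:**
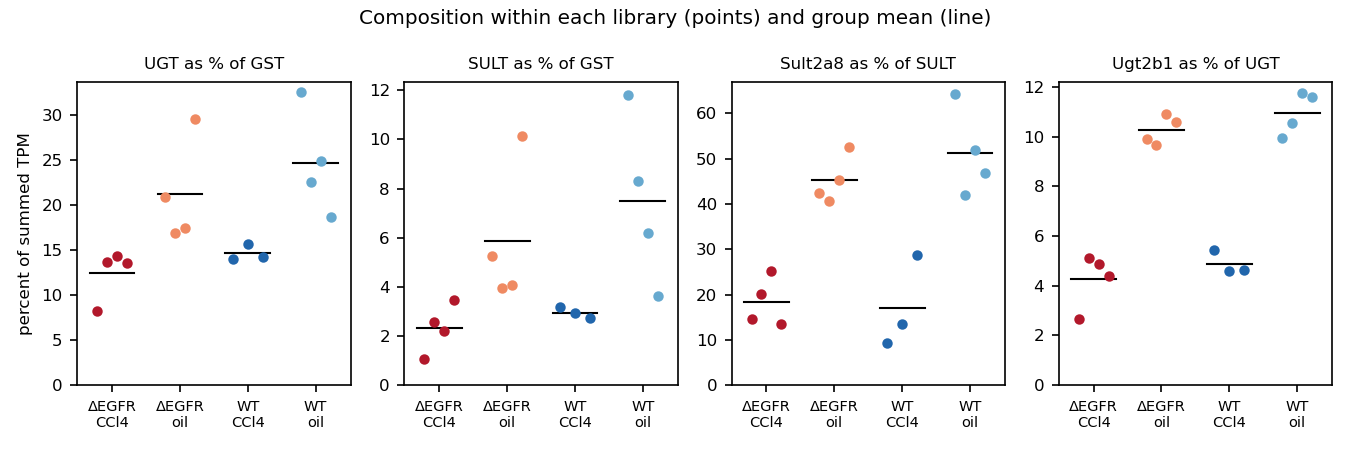
UGT and SULT transcripts as a percent of GST transcripts, Sult2a8 as a percent of SULT transcripts and Ugt2b1 as a percent of UGT transcripts, from TPM within each library, by group with the group mean as a line. CCl4 libraries lie below all mineral oil libraries of the same genotype in all 4 panels, for example at 4.602% to 5.42% against 9.92% to 11.8% of UGT transcripts for Ugt2b1 in WT.

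Between genotypes no member was called. ΔEGFR over WT gave 0 of 50 members called in mineral oil and 0 under CCl4, and the interaction of genotype and treatment gave 0, beside a background of 0% called in each direction over all 17975 genes in all 3. DESeq2 and limma called 0 members in these comparisons as well. At an unadjusted p under 0.05 there were 3 members in mineral oil (Sult1e1, Ugt1a2 and Ugt1a8), 3 under CCl4 (Gstp3, Gstt2 and Sult1e1) and 0 for the interaction. Over all genes the share at that threshold was 6.66% in mineral oil, 2.29% under CCl4 and 3.16% for the interaction, so the members' counts are no result about them. Over the 23 members given by library under the naming rule, the ΔEGFR over WT log2 fold changes ran from -1.54 to 0.19 in mineral oil and from -1.79 to 0.55 under CCl4, with standard errors of 0.17 to 1.15 and 0.19 to 1.25. Their interaction values ran from -0.75 to 0.75 with standard errors of 0.25 to 1.68. A p that missed the threshold does not show that the genotypes were alike. The pi-class gene Gstp3 was chosen after its values were seen. It had 33.4, 11.4, 18.3 and 19.4 CPM in ΔEGFR CCl4 libraries, against 9.85, 11.5 and 8.43 in WT CCl4 libraries. The ranges of Gstp3 overlapped by 1 library, with a log2 fold change of 1.06 ± 0.37 (adjusted p = 1) and an unadjusted p of 0.0124. Of the 6 members called with CCl4 in WT alone, none had an interaction p under 0.148 before adjustment.

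Several enzymes of other conjugation reactions fell with CCl4 as well. Of 18 tested genes for acetylation, methylation, amino acid conjugation and mercapturate formation, 8 were called lower in ΔEGFR and 10 in WT, with list medians of -1.14 and -1.53 on the log2 scale. All genes were called lower at 2.38% in ΔEGFR and 7.2% in WT, so the 2 counts cannot be set against each other directly. Nat8, which acetylates cysteine conjugates to mercapturates, gave -1.77 ± 0.24 (adjusted p = 0.00583) in ΔEGFR and -1.87 ± 0.26 (adjusted p = 0.00344) in WT. Baat, which joins bile acids to taurine and glycine, gave -1.25 ± 0.18 (adjusted p = 0.00874) in ΔEGFR and -1.23 ± 0.19 (adjusted p = 0.00444) in WT. Gnmt, the glycine N-methyltransferase, gave -1.91 ± 0.299 (adjusted p = 0.0102) in ΔEGFR and -1.85 ± 0.33 (adjusted p = 0.00638) in WT. Of 12 tested microsomal GST and other GST-fold genes, 1 was called higher and 1 lower in ΔEGFR, and 2 higher and 1 lower in WT. All genes were called higher at 1.77% in ΔEGFR and 5.31% in WT. The microsomal enzyme Mgst1, which is not related in sequence to the soluble GST genes, was called lower at -1.26 ± 0.25 (adjusted p = 0.0226) in ΔEGFR and -1.29 ± 0.27 (adjusted p = 0.0115) in WT.
Hpgds, the sigma-class enzyme that makes prostaglandin D2, went the other way. It had 10.9, 21.6, 21.5 and 13.3 CPM in ΔEGFR CCl4 libraries, against 1.19, 0.728, 1.303 and 0.01304 in ΔEGFR mineral oil libraries. In WT Hpgds had 9.79, 29.2 and 34.4 in WT CCl4 libraries, against 2.21, 0.359, 0.0798 and 2.15 in WT mineral oil libraries. CCl4 libraries stood higher without overlap, with 4.37 ± 1.05 (adjusted p = 0.0403) in ΔEGFR and 4.33 ± 1.08 (adjusted p = 0.0222) in WT, and macrophage markers, summed over 23 genes, were 3642 to 10690 TPM in ΔEGFR CCl4 libraries, against 66.5 to 1868 TPM in ΔEGFR mineral oil libraries. The same sum was 3578 to 12100 TPM in WT CCl4 libraries, against 132 to 2880 TPM in WT mineral oil libraries.

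Few genes of donor supply passed the test. The backgrounds of all genes were 2.38% called lower and 1.77% higher in ΔEGFR, and 7.2% lower and 5.31% higher in WT. Among 10 genes of UDP-glucuronic acid supply none was called in ΔEGFR and 1, Pgm2, was called higher in WT at 1.22 ± 0.34 (adjusted p = 0.03299). Among 11 genes of PAPS supply and sulfite handling, Suox, the sulfite oxidase, was called lower in both, at -1.13 ± 0.28 (adjusted p = 0.0411) in ΔEGFR and -1.17 ± 0.31 (adjusted p = 0.0264) in WT, and the PAPS synthase Papss2 in WT at -1.07 ± 0.26 (adjusted p = 0.0204). Of 18 genes for glutathione synthesis and recycling, 3 were called lower and 1 higher in ΔEGFR, and 4 lower and 1 higher in WT. Cth, which makes cysteine by transsulfuration, gave -1.53 ± 0.27 (adjusted p = 0.0158) in ΔEGFR and -1.76 ± 0.301 (adjusted p = 0.00553) in WT. Slc3a2, the heavy chain of the cystine transporter, was the gene called higher, at 1.13 ± 0.26 (adjusted p = 0.0357) in ΔEGFR and 1.65 ± 0.28 (adjusted p = 0.00549) in WT. Gclm, the modifier subunit of glutamate-cysteine ligase, was called lower in ΔEGFR at -0.68 ± 0.17 (adjusted p = 0.0411).

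Deconjugation and transport genes went in both directions, and most were not called. Of 15 tested hydrolases of conjugates and epoxides, 1 was called higher and 2 lower in ΔEGFR, and 1 higher and 3 lower in WT. Backgrounds of all genes were 1.77% higher and 2.38% lower in ΔEGFR, and 5.31% higher and 7.2% lower in WT. Gusb, the lysosomal beta-glucuronidase that removes glucuronic acid, had 81.4, 139, 127 and 97.8 CPM in ΔEGFR CCl4 libraries, against 49.7, 43.4, 40.8 and 30.9 in ΔEGFR mineral oil libraries. In WT Gusb had 76.9, 165 and 197 in WT CCl4 libraries, against 36.6, 39.6, 27.5 and 47.8 in WT mineral oil libraries. It rose without overlap, at 1.43 ± 0.28 (adjusted p = 0.0226) in ΔEGFR and 1.95 ± 0.297 (adjusted p = 0.00383) in WT, and the macrophage marker sums given above moved with it. Their part in the result was not tested for Gusb or Hpgds. The epoxide hydrolase Ephx2 fell at -1.26 ± 0.25 (adjusted p = 0.0229) in ΔEGFR and -1.59 ± 0.28 (adjusted p = 0.00638) in WT. Of 16 transporters of conjugates and organic anions, 1 was called higher in ΔEGFR and 3 lower in WT. All genes were called lower at 2.38% in ΔEGFR and 7.2% in WT, so counts in the genotypes cannot be set against each other directly. Abcc4, a pump of the basolateral membrane, was the gene called higher in ΔEGFR at 4.72 ± 1.16 (adjusted p = 0.0411), and the genes called lower in WT were Slco1b2, Abcc6 and Abcg2. Of 23 transcriptional regulators of these enzymes, 0 were called in ΔEGFR and 7 in WT, against those unequal backgrounds. In WT Ctnnb1 was higher at 0.93 ± 0.204 (adjusted p = 0.0135) and Nr1i3, the gene of CAR, was lower at -1.41 ± 0.37 (adjusted p = 0.0279). Hnf4a gave -0.86 ± 0.26 (adjusted p = 0.0735) in ΔEGFR and -0.98 ± 0.28 (adjusted p = 0.0403) in WT.

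The calls differed in how far they rested on single libraries. In ΔEGFR, Sult2a8, Sult2a7, Ugt2b1 and Ugt3a1 were called under every alternative in which they were tested, and in WT these 4 and Ugt2a3 were. Of the 13 ΔEGFR calls, 7 were lost without CCl4 replicate 1, 7 without CCl4 replicate 2, 5 without CCl4 replicate 3 and 6 without mineral oil replicate 4. The count of all genes called lower in ΔEGFR went from 427 to 46, 41, 72 and 55 in that order. Leaving out WT CCl4 replicate 3 took 14 of the 19 WT calls away and left the 5 named, while over all genes the count called lower went to 259. Without WT CCl4 replicate 2, 11 WT calls were lost, without WT mineral oil replicate 3 there were 9 lost, and without WT mineral oil replicate 2 there were 7 lost. All genes called lower in WT then numbered 406, 595 and 580, against 1295 in the main fit. Leaving out WT mineral oil replicate 1, the library with the highest markers of other cells, left all of the 13 and 19 calls in place. It brought the counts of members called lower to 20 in ΔEGFR and 21 in WT. Over all genes the counts called lower rose as well, from 427 to 1153 in ΔEGFR and from 1295 to 2528 in WT. With the score of those markers as a covariate, 5 members were called lower in ΔEGFR (Sult2a7, Sult2a8, Ugt1a10, Ugt2b1 and Ugt3a1) and 7 in WT (the same 5 with Sult1b1 and Ugt2a3), beside 45 and 424 genes called lower over the whole table. Since that score largely went with the treatment, this fit cannot separate the part of other cells from that of CCl4. Ugt2b34 held its WT call in 8 of 25 alternatives. Every one of the called members kept its sign under every alternative.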

How the data were processed

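Poly(A)-selected stranded libraries were made from total RNA of primary hepatocytes per the labels' protocols. The submitters' processing notes name STAR 2.7.8a, RSEM 1.3.0 and GRCm39, while annotation release and strand setting are not given in the sources used here. The deposited files hold RSEM expected counts per Ensembl gene, which the authors did not normalise, and TPM, which the authors' RSEM run scales by length and to a fixed total per library. Symbols came from an annotation table of another build, joined by Ensembl ID (52029 of 56953 matched) and used for names only.

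Expected counts were rounded. Genes were kept by filterByExpr (minimum count 10, total 15), which left 17975, and scaled by TMM. One model with a mean per group was fitted to all 15 libraries in edgeR 4.0.16 (R 4.3.3) by robust quasi-likelihood, and a gene was called at a Benjamini-Hochberg adjusted p under 0.05. The biological coefficient of variation was 50.9%. Log2 fold changes are given with their standard error. TPM served for levels and shares, and normalised CPM for values beside fold changes. Totals of 51.7 to 155.4 M (mega) counts per library set the counting error. Replicates were numbered in order of deposit.

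Values by library are given for members called in any comparison with a mean of at least 5 TPM and for the 5 members of each family with the highest mean TPM; lists of other genes are given by counts and up to 4 called genes. The members, lists and this rule were chosen with earlier results of these data known. Shared sequence was the share of 50-base windows of GENCODE transcripts found in another gene, and members sharing at least 30% were also summed, an alternative chosen after seeing the data. Other alternatives were RLE, upper-quartile and no scaling, 2 other filters, DESeq2 1.42.0, limma 3.58.1 on log2(TPM + 1), a fit of the groups compared alone, 2 covariates, and leaving out each library. The count tests were checked on simulated data. A search of promoters for another motif is not reported here.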

Additional observations from a re-analysis of the deposited data

Results flagged for a closer look

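The groups of 4 of every member given by library, and of Nqo1, Hpgds and Gusb, were examined for a replicate far from the other 3, in normalised CPM. Of 96 such groups 12 were marked. The limit used marks about 1 in 20 by chance for independent, normally distributed values, and these genes share libraries. Gsta1, Gsta2, Gstp3, Sult1e1 and Nqo1 were also picked after their values were seen, so the 12 cannot be set against chance. Gstm1 stood at 3983 CPM in ΔEGFR mineral oil replicate 2, with the other 3 at 1640 to 1818 CPM. In WT mineral oil replicate 4, Gstm3 had 818 CPM, beside 39.3 to 86.96 CPM in the rest of the group. The value of Sult1a1 in ΔEGFR CCl4 replicate 4 was 166 CPM, and the others had 52.9 to 71.7 CPM. Sult1d1 stood at 34.1 CPM in ΔEGFR CCl4 replicate 1, with the other 3 at 49.4 to 52.2 CPM. In ΔEGFR mineral oil replicate 4, Sult2a8 had 568 CPM, beside 204 to 258 CPM in the rest of the group. The value of Sult5a1 in ΔEGFR CCl4 replicate 4 was 1.56 CPM, and the others had 0.168 to 0.324 CPM. Ugt1a1 stood at 221 CPM in ΔEGFR CCl4 replicate 4, with the other 3 at 131 to 133 CPM. In ΔEGFR mineral oil replicate 4, Ugt1a1 had 678 CPM, beside 246 to 320.3 CPM in the rest of the group. The value of Ugt2b34 in ΔEGFR mineral oil replicate 3 was 315 CPM, and the others had 447 to 466 CPM. Sult2a7 stood at 1.39 CPM in WT mineral oil replicate 2, with the other 3 at 0.547 to 0.579 CPM. In WT mineral oil replicate 4, Gsta1 had 116 CPM, beside 0.942 to 2.29 CPM in the rest of the group. The value of Gsta2 in WT mineral oil replicate 4 was 69.3 CPM, and the others had 6.902 to 15.03 CPM. Replicate 4 of ΔEGFR CCl4 accounts for 3 of the 12, replicate 4 of ΔEGFR mineral oil for 2 and replicate 4 of WT mineral oil for 3. No reason for these values was tested.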

How the results depend on the processing

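No paired analysis was possible because the labels give no replicate number that links libraries of different groups. Counts of 0 in the genotype comparisons and the interaction stayed at 0 under every alternative run. The count of members called lower was 20 with DESeq2, 8 with limma and 5 with the other-cell score as covariate in ΔEGFR, and 7 with the groups compared alone, 8 with limma and 7 with that covariate in WT. Over all genes the counts called lower under these settings were 1090, 142 and 45 in ΔEGFR. They were 285, 348 and 424 in WT, in the order given. Leaving out each library in turn gave 6 to 20 lower in ΔEGFR, 5 to 21 lower in WT and 0 to 1 higher in WT, where limma called 1 higher. Over all genes the same fits called 41 to 1153 lower in ΔEGFR and 259 to 2528 lower in WT, so the swing was table-wide. The UGT median was -0.74 without scaling factors and -0.55 with limma in ΔEGFR, and -0.48 with limma in WT. The GST median turned positive, at 0.084 without scaling factors and 0.087 with limma in ΔEGFR, and at 0.13 with limma in WT; the same settings moved the median of all genes up. Signs turned for uncalled members. In ΔEGFR, Gsta3 had 0.084 without scaling factors and 0.22 with limma, Gstm1 0.38 and 0.59, and Ugt2b34 0.20 and 0.26. Gstm3 in ΔEGFR had -0.62 with the other-cell covariate and -0.16 with the depth covariate. In WT, Gstm1 had 0.23 without scaling factors and 0.60 with limma, and Gstm3 had 0.90 with limma. With each library left out, Gstm1 ran -0.21 to 0.38 in ΔEGFR and -0.48 to 0.47 in WT, and Gstm3 -0.0774 to 0.68 in ΔEGFR and -1.15 to 1.49 in WT. The cause of these changes was not tested. Sult2a7 has no value under the filter of 1 CPM in 3 libraries. Members under 5 TPM rest on few reads, and Ugt1a, Gsta1 with Gsta2, Gstp1 with Gstp2 and Ugt2b5 with Ugt2b38 on divided reads.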

Other observations

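Some zonation genes of the hepatocyte were called with CCl4, and most were not. Of 21 periportal genes, 8 were called lower in ΔEGFR and 8 in WT, with list medians of -1.12 and -1.29 on the log2 scale. Of 23 pericentral genes, 3 were called lower and 1 higher in ΔEGFR, and 8 lower and 1 higher in WT, with medians of -0.10 and -1.197. Of 24 sex-biased liver genes outside the 3 families, 9 were called lower and 1 higher in ΔEGFR, and 8 lower and 2 higher in WT. This list was not split by the sex in which a gene is higher, so the directions show no shift of either sex's pattern. Of 13 CAR and PXR targets outside the families, 1 was called lower in ΔEGFR and 3 in WT, and none higher. The backgrounds of all genes were 2.38% called lower and 1.77% higher in ΔEGFR, and 7.2% lower and 5.31% higher in WT. These lists were chosen with earlier results known, and no difference between the genotypes was called for any of their genes.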
